A study of Mus musculus with 8 samples.

Results

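The galectin family genes described here are *Lgals1*, *Lgals3*, *Lgals8* and *Lgals9*, which encode galectins, *Lgals3bp*, which encodes a secreted glycoprotein that binds galectin-3, and *Lgalsl*, which encodes a galectin-related protein. They were chosen by gene symbol, as 6 of the 45706 genes quantified, and 5 of the 6 passed the filter on low counts, the exception being *Lgals3*. The study asked which ribosome-associated mRNAs of PV+ interneurons, the fast-spiking basket and chandelier cells of the neocortex that express parvalbumin, differ after their activity is raised. Ribosomes tagged with HA were pulled down from the primary somatosensory cortex (S1) and their mRNA was sequenced in 4 samples from CNO-treated mice and 4 samples from vehicle-treated mice. All 8 samples came from PvalbFlp/+;Neurod6Cre/+ mice infected from postnatal day 1 with an AAV whose flox-fdio cassette encodes the ribosomal protein HA-RPL10a and, past a self-cleaving peptide, the receptor myc-hM3Dq. The cassette, driven by the synapsin promoter, needs Flp and is switched off by Cre, so that PV+ interneurons carry both the tagged ribosomal protein and hM3Dq, a receptor through which CNO excites cells, and *Neurod6*-expressing pyramidal cells do not. CNO mice received 1 mg per kg over about 48 h in 5 injections, vehicle mice received the vehicle on the same schedule, and the mice were between postnatal days 42 and 70 by the labels. The mice that received vehicle carry hM3Dq too, and no sample analysed here received CNO without the receptor. Each sample was pooled from 4 brains, so the spread between samples is that between pools.

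Galectins are small lectins that bind β-galactosides on the glycans of cell-surface and matrix glycoproteins. They are made in the cytosol and leave the cell without a signal peptide, and outside it they cross-link glycoproteins and so set how long receptors stay at the membrane. In the brain galectin-1 is known from subsets of neurons and from astrocytes and vessels, galectin-3 from activated microglia, and galectin-9 from vessels and immune signalling.

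The fold that binds sugar holds a conserved run of residues, His-x-Asn-Pro-Arg followed at a short distance by Trp-Gly-x-Glu-x-Arg, where x is any residue. A search of the longest coding sequence of each gene in the GENCODE annotation of GRCm38 found this run once in *Lgals1*, once in *Lgals3*, once in *Lgals8* and 2 times in *Lgals9*, and not in *Lgalsl* or *Lgals3bp*. In *Lgals8* the segment His-x-Asn-Pro-Arg was found 2 times and the whole run once. Among further galectin genes the search found the run once each in *Lgals2*, *Lgals4* and *Lgals7*. It found none in *Lgals12* or *Grifin*, so the run does not mark every galectin gene. The coding DNA of the runs is shown because the 4 members that encode galectins hold the run and the other 2 do not. The codons of the conserved residues are in capitals.
*Lgals1*, chr15:78929676-78929765, plus strand: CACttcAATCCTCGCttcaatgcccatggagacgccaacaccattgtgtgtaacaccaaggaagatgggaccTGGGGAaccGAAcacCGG
*Lgals3*, chr14:47384642-47384728, plus strand: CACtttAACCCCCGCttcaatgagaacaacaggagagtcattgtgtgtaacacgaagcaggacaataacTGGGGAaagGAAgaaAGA
*Lgals8*, chr13:12447189-12447266, minus strand: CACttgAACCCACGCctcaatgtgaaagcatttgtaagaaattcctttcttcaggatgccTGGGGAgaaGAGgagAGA
*Lgals9*, first, chr11:78973060-78973140, minus strand: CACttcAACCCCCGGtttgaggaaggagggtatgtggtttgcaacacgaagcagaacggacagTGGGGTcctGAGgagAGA
*Lgals9*, second, chr11:78965737-78965814, minus strand: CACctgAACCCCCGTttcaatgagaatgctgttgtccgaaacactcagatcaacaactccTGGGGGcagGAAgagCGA
Each of these runs lies within 1 coding exon. Translated and aligned, the run of *Lgals1* shared 60.0% of its aligned residues with that of *Lgals3*, 56.7% with the first of *Lgals9*, 46.7% with the second of *Lgals9* and 36.7% with that of *Lgals8*. No stretch of 31 bases in the transcripts of *Lgals1*, *Lgals3*, *Lgals9* or *Lgals3bp* occurred in another annotated gene. The search took exact matches in annotated transcripts alone, so it would miss copies with closely spaced differences or outside the annotation. In *Lgals8* such shared stretches made up 5.53% of all stretches, and in *Lgalsl* 8.17%. *Lgals8* also overlaps *Heatr1* on the opposite strand, and strand use in the counting is not given in the sources used here, so the reads of the overlap cannot be told apart.

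*Lgalsl*, *Lgals8* and *Lgals1* were well expressed in the pull-downs, and *Lgals3bp*, *Lgals9* and *Lgals3* were low. In TPM (transcripts in a fixed total of transcripts), which is scaled per length and so allows genes to be compared, the mean level over all 8 samples was 51.2 ± 3.47 TPM (SD, n = 8) for *Lgalsl*, 33.9 ± 2.91 TPM for *Lgals8* and 32.5 ± 13.7 TPM for *Lgals1*. *Lgals3bp* had 3.63 ± 0.941 TPM, *Lgals9* had 3.57 ± 1.03 TPM and *Lgals3* had 0.384 ± 0.267 TPM. These genes made up 40.9% (*Lgalsl*), 27.1% (*Lgals8*), 26.0% (*Lgals1*), 2.90% (*Lgals3bp*), 2.85% (*Lgals9*) and 0.306% (*Lgals3*) of the family's summed TPM. *Lgals1* varied more between samples than its neighbours in this order. In the vehicle samples the coefficient of variation of the counts scaled to library size was 0.419 for *Lgals1*, 0.0682 for *Lgalsl* and 0.0303 for *Lgals8*, beside a median of 0.155 over all genes tested. Without vehicle replicate 1 it was 0.0958 for *Lgals1*, 0.0617 for *Lgalsl* and 0.0218 for *Lgals8*, beside a median of 0.0987, so the spread of *Lgals1* in the vehicle group rested on that sample. Over the 8 samples the range of *Lgals1* overlapped those of *Lgals8* and of *Lgalsl*, which it exceeded in CNO replicate 4, and the ranges of *Lgals3bp* and *Lgals9* overlapped, so none of these pairs can be ordered beyond its spread. Within samples, *Lgals1* was below *Lgals8* in 4 of 4 vehicle samples and above it in 4 of 4 CNO samples. The margin was small in CNO replicate 1, at 35.8 TPM for *Lgals1* and 34.6 TPM for *Lgals8*. This switch rests on the same values as the *Lgals1* difference given below, and how often other gene pairs switch was not counted.

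**Figure D1:**
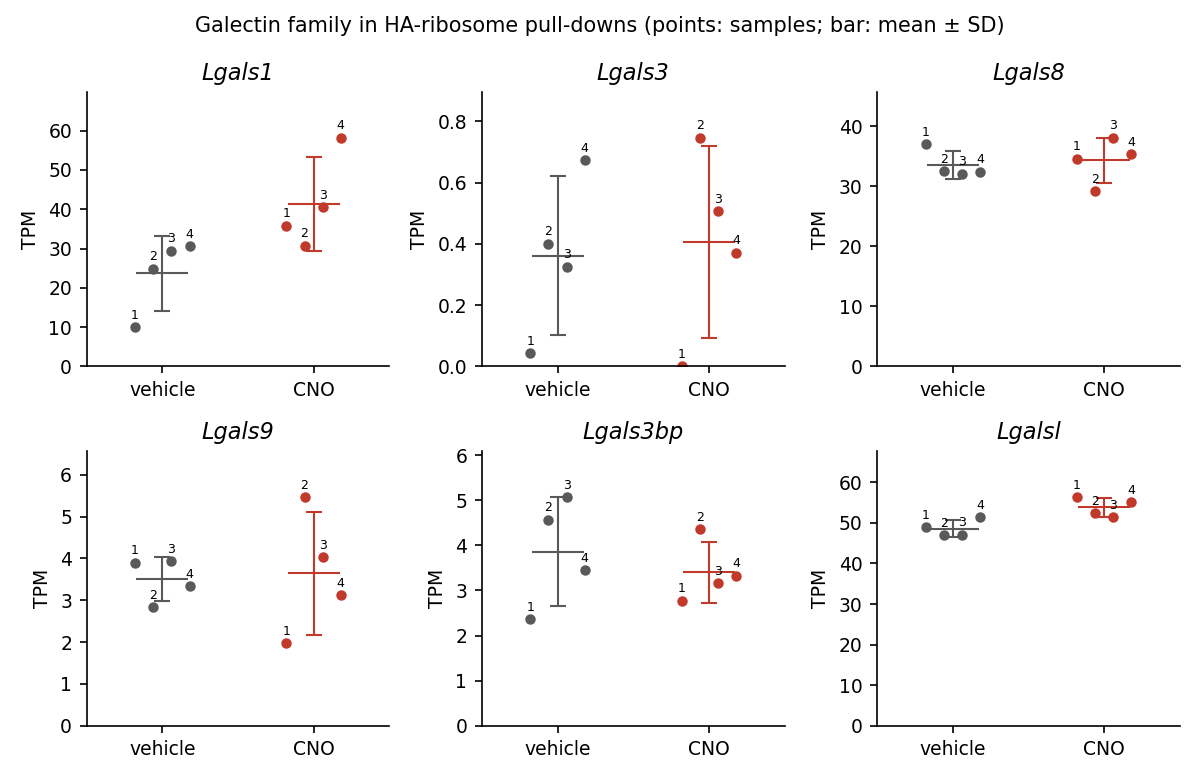
TPM (vertical axis, starting at 0) of each of the 6 galectin family genes in the 4 vehicle samples and 4 CNO samples, each point being 1 sample with its replicate number and each bar the mean ± SD. *Lgals1* lies higher in the CNO samples, with vehicle replicate 1 far below the other vehicle samples at 9.93 TPM, and the other 5 genes differ little between the groups.

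*Lgals1* encodes galectin-1, a secreted galectin that acts as a dimer, and it was the member with the greatest difference between the groups. Its level was 35.8, 30.7, 40.5 and 58.2 TPM in CNO replicates 1 to 4, and 9.93, 24.9, 29.5 and 30.6 TPM in vehicle replicates 1 to 4. The counts behind these values were 492, 398, 557 and 822 with CNO and 114, 331, 409 and 408 with vehicle. CNO replicate 4 was the highest sample and vehicle replicate 1 the lowest. On the TPM scale all CNO samples lay above all vehicle samples, although CNO replicate 2 and vehicle replicate 4 were almost level. The share of all genes whose groups separate in TPM was not counted. In CPM (counts scaled to TMM-adjusted library size but not to gene length) the groups overlapped, since CNO replicate 2 had 8.41 CPM and vehicle replicate 3 had 8.50 CPM. Mean levels were 41.3 ± 11.96 TPM with CNO and 23.7 ± 9.52 TPM with vehicle (SD, n = 4 each). The fitted log2 fold change was 0.87 with a standard error of 0.33, a 1.82-fold higher level with CNO. With edgeR's quasi-likelihood test the unadjusted p was 0.0250 and the Benjamini-Hochberg adjusted p over the 17495 genes tested was 0.817, so the difference did not pass 0.05 after adjustment. The exact permutation test on log2 CPM, two-sided over 70 assignments, gave p = 0.0571, and on log2(TPM + 1) it gave p = 0.0286, the smallest value that 4 against 4 allows. In these bulk pull-downs, more tagged cells or tagged ribosomes in a sample and more *Lgals1* mRNA per tagged cell cannot be told apart.

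*Lgalsl* encodes a galectin-related protein whose lectin domain lacks residues needed to bind lactose. It was at 56.4, 52.5, 51.4 and 55.2 TPM with CNO and at 48.9, 47.0, 47.1 and 51.4 TPM with vehicle. On the TPM scale the highest vehicle sample, replicate 4, was level with the lowest CNO sample, replicate 3, so the groups touched. In CPM the groups overlapped, since CNO replicate 2 had 56.7 CPM and vehicle replicates 3 and 4 had 58.2 and 60.5 CPM. The log2 fold change was 0.23 with a standard error of 0.10, which is a 1.17-fold higher level, and edgeR's quasi-likelihood test gave an unadjusted p of 0.0417 and an adjusted p of 0.817. The exact permutation test gave p = 0.0857.

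*Lgals8* and *Lgals9* encode galectins with a pair of sugar-binding domains joined by a linker. Galectin-8 is known for marking damaged endosomes from the cytosol. *Lgals8* was at 34.6, 29.2, 38.1 and 35.3 TPM with CNO and at 37.0, 32.5, 32.1 and 32.5 TPM with vehicle, and both the lowest and the highest sample were CNO samples. Its log2 fold change was 0.17 with a standard error of 0.11 and an adjusted p of 0.817 (edgeR). *Lgals9*, known as a ligand of the immune receptor TIM-3, was at 1.98, 5.47, 4.02 and 3.11 TPM with CNO and at 3.90, 2.83, 3.93 and 3.34 TPM with vehicle. The CNO samples enclosed the whole range of the vehicle samples. The log2 fold change of *Lgals9* was 0.13 with a standard error of 0.27 and an adjusted p of 0.901 (edgeR), on 58 to 146 counts per sample.

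*Lgals3* encodes galectin-3 and *Lgals3bp* its secreted binding partner. *Lgals3* had 0, 11, 10 and 7 counts with CNO and 1, 7, 6 and 12 counts with vehicle, so it did not pass the filter, which needs at least 10 counts in more than 4 of the 8 samples, and was not part of the reported fit. A count of 0 in a sample allows up to 3 counts, which is 0.0607 to 0.0681 CPM at the depths of these samples. Both groups spanned nearly the same range. Fitted without the filter, the log2 fold change of *Lgals3* was 0.14 with a standard error of 0.76 (adjusted p = 0.976, edgeR), so a difference was not detectable at this depth. *Lgals3bp* was at 2.77, 4.36, 3.16 and 3.33 TPM with CNO and at 2.36, 4.57, 5.07 and 3.45 TPM with vehicle. The groups overlapped throughout. Its log2 fold change was 0.07 with a standard error of 0.21 and an adjusted p of 0.931 (edgeR), and the sign of this difference depended on the scale, the mean TPM being 3.41 with CNO and 3.86 with vehicle.

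None of the 5 members tested had an adjusted p under 0.05, beside 0.0% of the 17495 genes tested. By edgeR's quasi-likelihood test 0 genes in all passed, while 716 had an unadjusted p under 0.05. The likelihood ratio test with robust dispersion passed 15 genes and DESeq2 passed 11, none of them a member. Of the 5 members, 2 (*Lgals1* and *Lgalsl*) had an unadjusted p under 0.05 and were higher with CNO, beside 1.44% of all genes tested, and 0 were lower at that level, beside 2.65% of all genes (4.09% in either direction). In CPM the groups did not overlap for 0 of the 5 members, beside 2.42% of all genes. All 5 had a positive log2 fold change, with a median of 0.17, beside 50.4% of all genes tested and a median of 0.00. A count over 5 genes is small, and the signs of *Lgals9* and *Lgals3bp* were not stable. The members were chosen with earlier results of these data known, and an excess over all genes was not tested.

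The size of the *Lgals1* difference moved with the samples and the covariates. Without vehicle replicate 1 the log2 fold change was 0.59 with a standard error of 0.21, and without CNO replicate 4 it was 0.64 with a standard error of 0.32. It was 0.36 with a standard error of 0.13 once an index of interneuron against pyramidal markers was a covariate, and 0.41 with a standard error of 0.13 with 1 surrogate variable. In all 21 fits it was positive, in 20 of them the unadjusted p was under 0.05, and in none was the adjusted p of edgeR, DESeq2 or limma below 0.473.

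**Figure D2:**
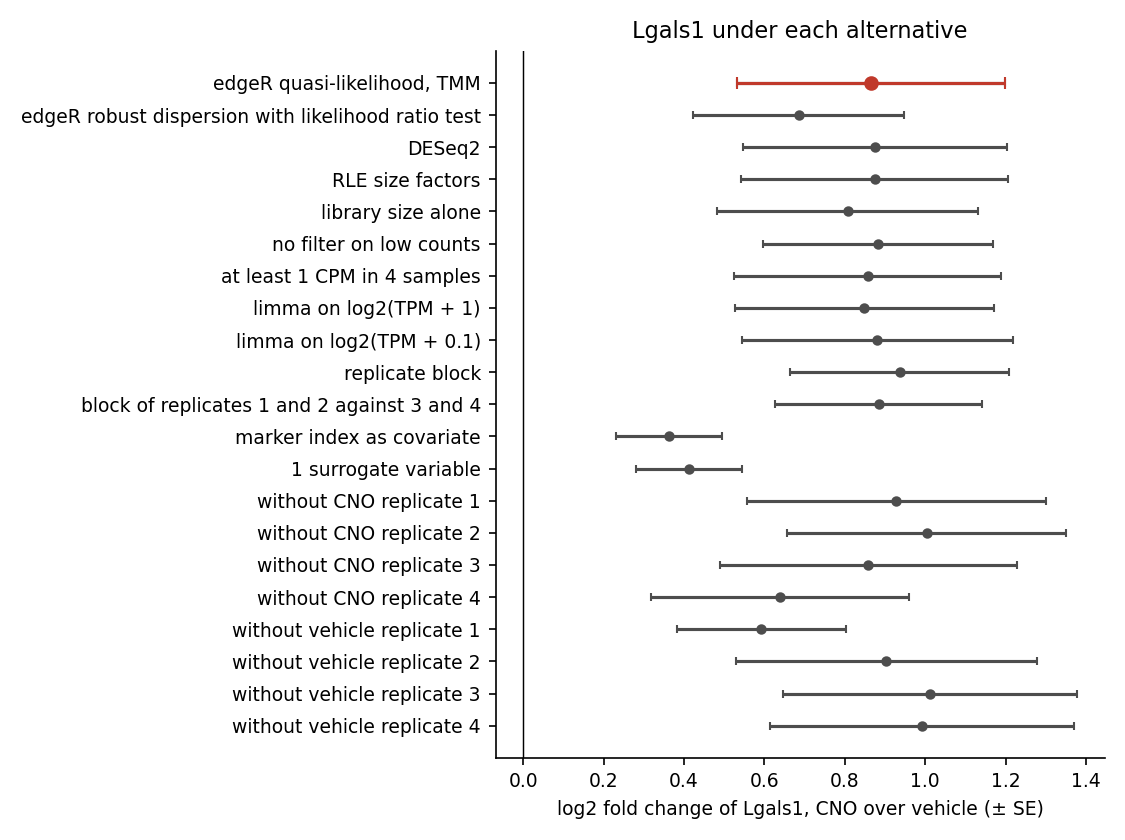
Log2 fold change of *Lgals1*, CNO over vehicle (horizontal axis, error bars ± SE), in the reported fit (top, red) and in 20 alternatives. Every estimate lies above 0, between 0.36 with the marker index as covariate and 1.01 without vehicle replicate 3.

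*Lgals1* moved between samples with the genes that mark PV+ interneurons. The 12 markers of this cell type (among them *Pvalb*, *Gad1*, *Gad2* and *Slc32a1*) were all detected in every sample, and their summed level was 2679 to 4160 TPM with CNO and 1255 to 3316 TPM with vehicle. Vehicle replicate 1 held the lowest sum, and without it the vehicle samples ran from 3042 to 3316 TPM. All 12 had a positive log2 fold change, with a median of 0.43, although 1 of the 12 (*Gad2*) had an unadjusted p under 0.05. The 12 pyramidal cell markers, also detected throughout, summed to 778 to 1050 TPM with CNO and to 979 to 1226 TPM with vehicle, the highest being vehicle replicate 1. Across the 8 samples the log2 CPM of *Lgals1* correlated with the mean log2 CPM of the PV+ markers at Pearson's r = 0.954 (exact permutation p = 0.00136, adjusted over 20 relations 0.0136) and Spearman's rho = 0.905 (exact permutation p = 0.00456, adjusted 0.0290). Without the 2 samples farthest from the median of the markers, vehicle replicate 1 and CNO replicate 4, r was 0.610 over 6 samples, so much of the relation rests on them. Taken as deviations from the group means, r was 0.970 over all 8 samples. It was not computed without vehicle replicate 1, the lowest sample in both *Lgals1* and the PV+ markers. The part of the marker level in the *Lgals1* difference was not tested beyond these fits.

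Set against the PV+ markers of the same sample, *Lgals1* was higher with CNO, although the gap between the groups was small. Its log2 CPM minus the mean log2 CPM of the 12 markers was -3.81, -3.47, -3.44 and -3.28 in CNO replicates 1 to 4 and -4.10, -3.92, -3.92 and -3.86 in vehicle replicates 1 to 4. All 4 CNO samples were above the highest vehicle sample, the nearest being CNO replicate 1 at -3.81 and vehicle replicate 4 at -3.86. Vehicle replicate 1 was still the lowest sample on this scale, at -4.10 against -3.92 to -3.86 in the other vehicle samples. The groups differed by 0.45 on the log2 scale (exact permutation p = 0.0286, two-sided, the smallest that 4 against 4 allows). Without vehicle replicate 1 the 4 CNO samples were still above the others, with a difference of 0.40 (exact permutation p = 0.0571 over 35 assignments). This scale was chosen after the values had been seen, and the share of all genes whose groups separate on it was not counted. The part of tagged cell or ribosome number in this difference was not tested. For the other 5 genes the same difference was negative, from -0.28 for *Lgalsl* to -0.52 for *Lgals3*, with exact permutation p from 0.257 to 0.657. For *Lgalsl*, *Lgals8* and *Lgals9* these values rested on vehicle replicate 1. Without it the difference was 0.04 for *Lgalsl*, -0.01 for *Lgals8*, -0.07 for *Lgals9*, -0.24 for *Lgals3bp* and -0.59 for *Lgals3*.

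The relation to the PV+ markers was not particular to *Lgals1*. *Lgalsl* correlated with them at r = 0.779 (exact permutation p = 0.00409, adjusted 0.0205) and rho = 0.929 (exact permutation p = 0.00223, adjusted 0.0223), and r was 0.801 without the 2 farthest samples. For *Lgals8* r was 0.639 (exact permutation p = 0.0682, adjusted 0.139) and rho 0.881 (exact permutation p = 0.00724, adjusted 0.0290), and r was 0.786 without the 2 farthest samples. The pyramidal markers were inversely related to *Lgals1* (r = -0.901, exact permutation p = 0.00660, adjusted 0.0222) and to *Lgalsl* (r = -0.823, exact permutation p = 0.00665, adjusted 0.0222), with r of -0.604 and -0.700 without the 2 farthest samples. *Lgals1* was also inversely related to the microglia markers (r = -0.788, exact permutation p = 0.00883, adjusted 0.0232), with r = -0.706 without the 2 farthest samples. As deviations from the group means, its median r with single markers was -0.54 for microglia, -0.54 for oligodendrocytes and -0.53 for astrocytes.

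*Lgalsl* was inversely related to the mean of the 12 microglia markers, with r = -0.958 (exact permutation p = 0.000446, adjusted 0.00893) and rho = -0.952 (exact permutation p = 0.00114, adjusted 0.0223), and r was -0.906 without the 2 samples farthest from the median. The means of the oligodendrocyte and astrocyte lists were not correlated in this way. As deviations from the group means, the median r of *Lgalsl* with single markers was -0.78 for microglia, -0.71 for oligodendrocytes and -0.60 for astrocytes. The microglia markers were all detected and summed to 94.4 to 150 TPM with CNO and 126 to 164 TPM with vehicle. *Lgals9* followed the mean of the 10 endothelial markers, with r = 0.891 (exact permutation p = 0.00389, adjusted 0.0205) and rho = 0.833 (exact permutation p = 0.0154, adjusted 0.0384), and r was 0.764 without the 2 farthest samples. This likeness was not particular to endothelial markers. As deviations from the group means, its median r with single markers was 0.87 for endothelial, 0.72 for mural and fibroblast and 0.61 for oligodendrocyte markers. It was 0.45 for microglia and 0.30 for astrocyte markers. The oligodendrocyte markers ran from 0.397 to 0.942, mural and fibroblast markers from -0.52 to 0.92 and astrocyte markers from -0.43 to 0.85. CNO replicate 1, the lowest in *Lgals9*, also had the lowest endothelial sum at 113 TPM, and the other samples ran up to 256 TPM. *Lgals8* was inversely related to the microglia markers, with r = -0.854 (exact permutation p = 0.00928, adjusted 0.0232), and r was -0.734 without the 2 farthest samples. Its median r with single markers, as deviations from the group means, was -0.62 for microglia, -0.65 for oligodendrocytes and -0.51 for astrocytes. For *Lgals3bp* none of the relations with 4 marker lists had an adjusted p under 0.05, and its r with the PV+ markers turned from 0.541 to -0.912 without vehicle replicate 1 and CNO replicate 4. The remaining marker lists were likewise detected in full. Astrocyte markers (11 genes) summed to 567 to 675 TPM with CNO and 588 to 754 TPM with vehicle, oligodendrocyte markers (10 genes) to 578 to 1043 TPM and 796 to 1024 TPM, mural and fibroblast markers (10 genes) to 55.7 to 111 TPM and 62.9 to 98.6 TPM, and markers of other interneurons (10 genes) to 611 to 709 TPM and 703 to 820 TPM.

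**Figure D3:**
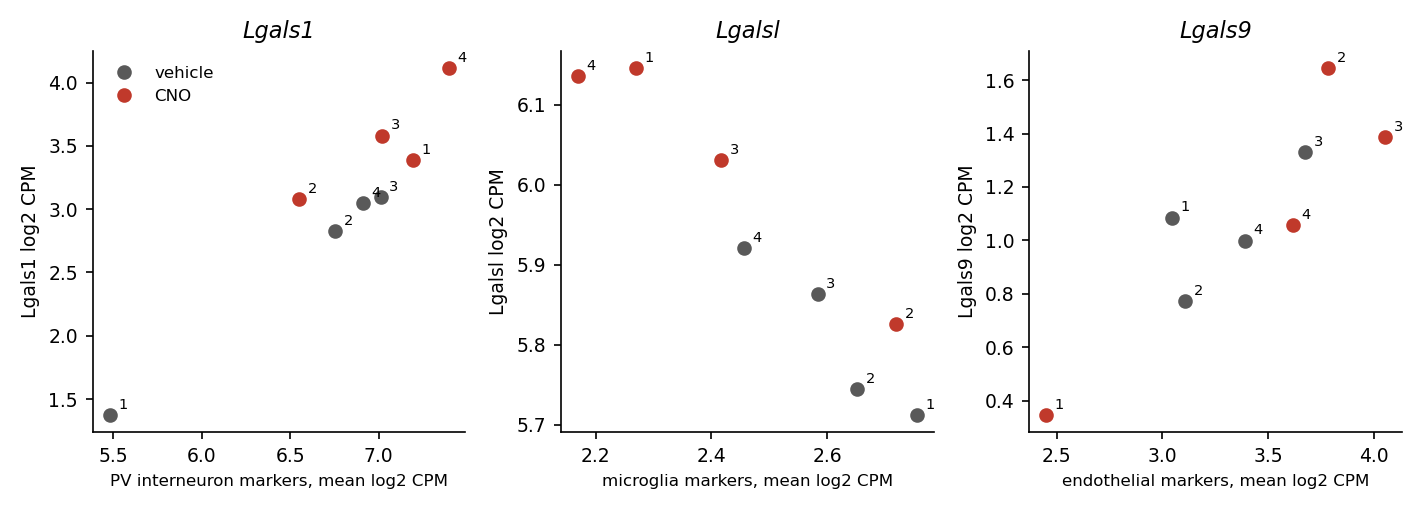
Log2 CPM of *Lgals1*, *Lgalsl* and *Lgals9* (vertical axes) against the mean log2 CPM of PV+ interneuron, microglia and endothelial markers (horizontal axes), each point being 1 sample with its replicate number, vehicle in grey and CNO in red. *Lgals1* climbs with the PV+ markers (r = 0.954), *Lgalsl* declines with the microglia markers (r = -0.958) and *Lgals9* climbs with the endothelial markers (r = 0.891).

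The genes most like each member are given as a description, with no test. Among 15172 other genes with a mean above 1 TPM, the 5 whose log2 CPM deviated from the group means most like *Lgals1* over the 8 samples were *Serinc3* (r = 0.997), *Tspan9* (0.996), *Rpl10a-ps1* (0.994), *Ncald* (0.994) and *Itm2b* (0.994). *Rpl10a-ps1* is a pseudogene of *Rpl10a*, whose product carries the HA tag in the virus, and reads of such copies can be split between them. Whether this bears on the likeness to *Lgals1* was not tested. The r of *Lgals1* with the 12 PV+ markers ran from 0.863 (*Erbb4*, rank 2493 of 15172) to 0.977 (*Kcnc2*, rank 88). Many genes outside this list were therefore as like *Lgals1* as its markers were. Among 21 genes for galectin-binding receptors and glycoproteins r ran from -0.978 to 0.975 (rank 99), with a median of -0.04. None of the r in this paragraph was computed without vehicle replicate 1, so its part in them was not tested. Most like *Lgalsl* were *Chm*, *Tmx3*, *Zdhhc17*, *Rps6ka3* and *Spire1* (0.978 to 0.994). Most like *Lgals8* were *Mn1*, *Josd1*, *Ddit4*, *Arpc2* and *Irf2bp2* (0.975 to 0.991). For *Lgals9* they were *Nkd2*, *Trim47*, *Ehd2*, *Tmem64* and *Ebf1* (0.976 to 0.984), and its r with 9 endothelial markers above 1 TPM ran from 0.797 to 0.925. For *Lgals3bp* they were *Lig1*, *Lyz2*, *Gm12263*, *Igfbp3* and *Nelfb* (0.936 to 0.971), *Lyz2* being the lysozyme of microglia and macrophages.

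The further galectin genes in the files were low. Of *Lgals2*, *Lgals4*, *Lgals7*, *Lgals12* and *Grifin*, 2 passed the filter. *Lgals4* was at 1.75 to 2.91 TPM with CNO and 2.36 to 3.69 TPM with vehicle (log2 fold change -0.19 ± 0.23 SE, adjusted p = 0.832, edgeR), and *Lgals12* stayed below 1 TPM in all samples (log2 fold change -0.32 ± 0.28 SE, adjusted p = 0.817, edgeR). *Lgals2* had at most 6 counts in a sample, *Lgals7* at most 11 and *Grifin* at most 2.

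Genes for the partners of galectins gave no member past the adjusted threshold. Of 25 genes for receptors and glycoproteins that galectins bind, 24 were tested, 13 were higher and 11 lower with CNO, 0 had an unadjusted p under 0.05 in edgeR's quasi-likelihood test (0 to 3 in the alternatives), beside 4.09% of all genes, and the median log2 fold change was 0.00. In CPM the groups did not overlap for 1 of the 24, beside 2.42% of all genes. This was *Ncam1*, the neural cell adhesion molecule, at 40.9 to 44.2 TPM with CNO and 42.8 to 48.8 TPM with vehicle, although its log2 fold change was -0.07 (adjusted p = 0.825, edgeR). Of 32 genes for enzymes and transporters that build N-glycans, O-glycans and poly-N-acetyllactosamine, all were tested, 16 were higher and 16 lower, and the median was 0.00. *St3gal6*, a sialyltransferase that caps galactose, was the 1 gene of 32 with an unadjusted p under 0.05, beside 4.09% of all genes, at 28.5 to 31.2 TPM with CNO and 23.9 to 30.9 TPM with vehicle (log2 fold change 0.39 ± 0.18 SE, adjusted p = 0.817, edgeR). Its lowest count was in vehicle replicate 1, as for *Lgals1*, and without that sample its log2 fold change was 0.22 and its p no longer under 0.05. The same loss followed from leaving out 5 other samples in turn.

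The activity of the tagged cells was read from 6 immediate early genes, of which 4 had an unadjusted p under 0.05, beside 4.09% of all genes, and 3 had groups that did not overlap, beside 2.42%. *Fos* had a log2 fold change of 1.93 (adjusted p = 0.0520, edgeR), *Fosb* 1.88 and *Dusp1* 1.17, above the 0.87 of *Lgals1*, and *Nr4a1* had 0.68, *Npas4* 0.15 and *Egr1* 0.07, below it.

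**Figure D4:**
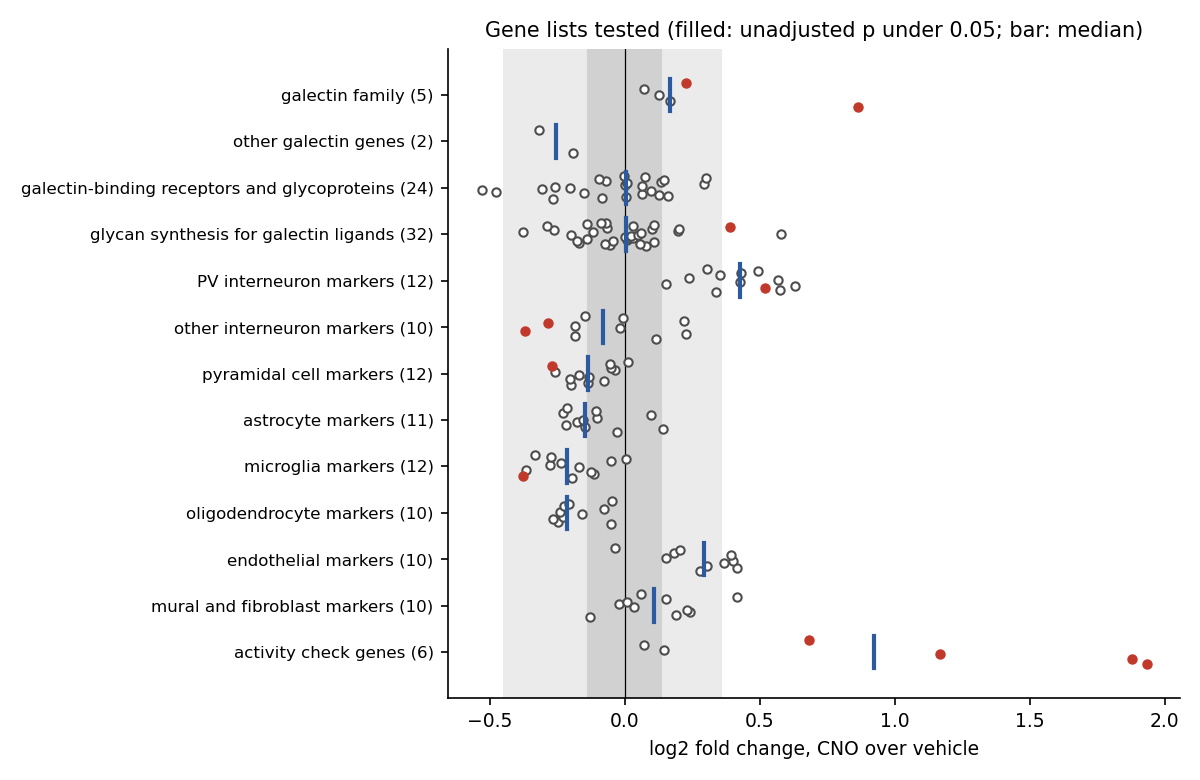
Log2 fold change, CNO over vehicle (horizontal axis), of every tested gene of each list (number tested in brackets), filled where the unadjusted p was under 0.05, with the list's median as a bar, over bands that hold the middle 50% (dark) and 90% (light) of all genes tested. *Lgals1* at 0.87 lies outside the light band, the other 4 galectin family genes lie within it, and the receptor and glycan lists centre on 0.

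Total counts ran from 44064138 to 49413277 per sample, and 2 genes, *Trp53bp1* and *Bcar1*, took 17.6 to 28.3% of them, most in vehicle replicate 1. Vehicle replicate 1 stood apart from the other samples in its PV+ and pyramidal markers.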

How the data were processed

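Paired-end RNA-seq reads of 8 HA pull-downs had been trimmed with Trim Galore, aligned with STAR to GRCm38 (mm10), quantified with Salmon and imported with tximport, as the methods and the labels state, and versions are not given in the sources used here. The authors deposited estimated counts per gene, which were rounded here to whole numbers, and TPM, which they scaled per transcript length and to a fixed total per sample. PCR duplicates were not marked by molecular identifiers, so floors cover counting error only. Counts were fitted with edgeR 4.0.16 (R 4.3.3, TMM, glmQLFit and glmQLFTest) on the 17495 genes left after genes with under 10 counts in 4 or more of the 8 samples were dropped, with Benjamini-Hochberg adjustment over all of them and a threshold of 0.05. Standard errors of the edgeR fits were derived from the test, as the absolute log2 fold change over the square root of its statistic. Log2 CPM values used a prior count of 2. Exact permutation tests ran over 70 assignments, and over 40320 orders for correlations. Alternatives used DESeq2 1.42.0, limma 3.58.1 on log2(TPM + 1) and log2(TPM + 0.1), sva 3.50.0, other scalings and filters, covariates, blocks and leaving out each sample. The scripts were tested on simulated data. To form the marker index, the pyramidal markers' average log2 CPM was subtracted from that of the PV+ markers. Motif and 31-base searches used GENCODE transcripts of GRCm38, with Python 3.11.15.

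The members and gene lists were chosen with earlier results of these data known. Genes named are the 6 members, genes of the 3 galectin-related lists with an unadjusted p under 0.05 or groups that do not overlap, the 5 genes most like each tested member, cell type markers and 6 activity genes. Other genes named (the low galectin genes and the 2 with most counts) were chosen after their values were seen. The marker correlations, the scale relative to PV+ markers, the library size without the 2 genes with most counts and the values without vehicle replicate 1 and CNO replicate 4, or on that scale without vehicle replicate 1, were also chosen after seeing the data.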

Additional observations from a re-analysis of the deposited data

Results flagged for a closer look

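In vehicle replicate 1 *Lgals1* lay far below the other vehicle samples. Its log2 CPM was 1.37, and the other vehicle samples ran from 2.83 to 3.09, so that the gap to the nearest sample was 0.846 of the group's range, above Dixon's 95% limit for 4 samples. Of 12 groups examined (6 genes in 2 treatments) this was the 1 group past the limit, and chance passes about 1 in 20 groups. Beside it, the summed PV+ marker level of this sample was 1255 TPM, below the other vehicle samples at 3042 to 3316 TPM.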

How the results depend on the processing

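No alternative gave a member an adjusted p under 0.05. *Lgals1*, *Lgals8* and *Lgalsl* kept a positive log2 fold change in all 21 fits. *Lgals9* turned to -0.0036 in limma on log2(TPM + 1), -0.022 on log2(TPM + 0.1) and -0.070 without CNO replicate 2. *Lgals3bp* turned to -0.12 and -0.14 in those limma fits, -0.041 with the marker index as covariate, -0.00060 with 1 surrogate variable, -0.05 without CNO replicate 2 and -0.077 without vehicle replicate 1. Leaving out each sample gave 0.59 to 1.01 for *Lgals1*, 0.11 to 0.26 for *Lgals8*, -0.07 to 0.33 for *Lgals9*, -0.08 to 0.16 for *Lgals3bp* and 0.19 to 0.29 for *Lgalsl*. The cause of these shifts was not tested.

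Of 2 members with an unadjusted p under 0.05, 1 remained with library size alone, both limma fits, the replicate block, the marker index and the surrogate variable, and 0 to 3 when 1 sample was left out (0 without CNO replicate 4, and 3 without CNO replicate 2, where *Lgals8* joined). Receptor and glycoprotein genes at this level went from 0 to 1 with DESeq2, library size alone, the replicate block and a block setting replicates 1 and 2 apart from 3 and 4, and to 0 to 3 when 1 sample was left out. Glycan synthesis genes went from 1 to 2 with robust dispersion, to 0 with both limma fits, the marker index and the surrogate variable, and to 0 to 2 when 1 sample was left out. In exact permutation tests the *Lgals1* difference was 0.85 on log2(TPM + 1) and 0.45 relative to PV+ markers, each with p = 0.0286. It was 0.36 without vehicle replicate 1 and CNO replicate 4 (exact permutation p = 0.200, where 3 against 3 cannot reach 0.05) and 0.40 relative to PV+ markers without vehicle replicate 1 (exact permutation p = 0.0571). On log2(TPM + 1) the difference was 0.039 for *Lgals3*, -0.0036 for *Lgals9* and -0.12 for *Lgals3bp*. Relative to PV+ markers it was -0.35 for *Lgals8*, -0.44 for *Lgals9*, -0.42 for *Lgals3bp* and -0.28 for *Lgalsl*. Without vehicle replicate 1 this became -0.011, -0.074, -0.24 and 0.042 in the same order. Without vehicle replicate 1 and CNO replicate 4 it was -0.13 for *Lgals3bp*.

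The labels number the replicates of both groups 1 to 4. Samples of the same number deviated from their group means with r of 0.03, -0.03, 0.16 and 0.24. These values cannot show whether samples of the same number share more than the number. As a hint from the data, each CNO sample correlated best with a vehicle sample of its own set, replicates 1 and 2 or replicates 3 and 4. A block of those sets raised the genes with an unadjusted p under 0.05 from 716 to 1193, with an *Lgals1* log2 fold change of 0.88 (adjusted p = 0.678, edgeR). With the replicate block the *Lgals1* log2 fold change was 0.94 and the *Lgalsl* value 0.22, both with an adjusted p of 0.799 (edgeR), and of 4 CNO samples 1 correlated best with its own number. With 4 samples a group the differences of *Lgals1* and *Lgalsl* did not pass adjustment over all genes, and *Lgals3*, at 0 to 12 counts, was below the filter.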
